A study of Mus musculus with 8 samples.

Results

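The 10 genes described here belong to the Jak2 and Stat5 pathway: Stat5a, Stat5b, Jak2, Cish, Socs1, Socs2, Socs3, Pim1, Pim2 and Osm. They were chosen by name, with earlier results of these data known, and all 10 are among the 13305 genes of the count table. Jak2 is a kinase bound to cytokine receptors, and Stat5a and Stat5b are transcription factors that move to the nucleus once they are phosphorylated on tyrosine. Flt3-ITD, the mutant receptor of these mice, is known to activate STAT5 strongly, in contrast to the wild-type receptor. Among the genes that STAT5 is known to switch on are Cish and the Socs genes, which feed back on receptors and Janus kinases, the survival kinases Pim1 and Pim2, and the cytokine gene Osm. Phosphorylation itself is not seen in RNA, so the measurements below are of transcripts only.

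Whole BM of 8 mice on the C57BL/6N strain was sequenced, 1 library per mouse. All 8 carried Mx1-Cre, 1 deleted Dnmt3a allele (Dnmt3a+/-) and the Flt3 internal tandem duplication on both alleles (Flt3ITD/ITD), and they are named AML mice. They differed in Gab2, the gene of an adaptor protein that links receptors to downstream signaling: 3 AML WT mice were Gab2+/+, 2 AML HET mice Gab2+/- and 3 AML KO mice Gab2-/-. The Gab2 knockout is constitutive, so every cell of the mouse carries it, and no Flt3 wild-type mouse is among these samples. Mx1-Cre is an interferon-inducible driver that in this colony recombined Dnmt3a without pIpC, and the age of the sequenced mice is not given in the sources used here.

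Libraries held 28009258 to 39266815 counts. Gab2, the targeted gene, was at 74.7 ± 17.0 CPM (counts scaled by TMM library sizes) as the mean ± SD of the 3 AML WT mice (n = 3), at 53.3 ± 3.57 over the 2 AML HET mice and at 40.8 ± 6.15 over the 3 AML KO mice. Its log2 fold change (log2FC) from AML WT to AML KO was -0.87 (standard error, SE, 0.18, edgeR adjusted p = 0.0420), a call that 6 of the 8 leave-one-out fits did not keep, with the highest adjusted p, 0.159, when AML KO replicate 3 was left out. It was also not kept in a fit of the AML WT and AML KO mice alone (0.0809). The counts per gene do not show which exons the remaining reads cover. Comparing AML KO with AML WT, 278 genes (2.09%) had an adjusted p under 0.05 in edgeR's quasi-likelihood test, with 235 higher (1.77%) and 43 lower (0.323%) values in AML KO. That count was 40 when AML WT replicate 2 was left out, 167 for AML WT replicate 1, 137 for AML KO replicate 1 and 123 for AML KO replicate 3. The marker lists of BM cell types were all detected, and 3 of them differed widely between the genotypes. The summed level of 15 erythroid markers was 208.6 to 293.1 CPM in AML WT, 495.1 and 1813 in AML HET and 1304 to 4388 in AML KO mice, with 14 of 15 genes higher past the threshold. The 14 megakaryocyte and platelet markers summed to 98.9 to 135.5 CPM in AML WT, 138.2 and 183.6 in AML HET and 369.0 to 495.8 in AML KO, with 13 past the threshold, all higher. The 14 mature neutrophil markers summed to 1401 to 4837, 5552 and 6239, and 10690 to 17390 CPM in the same order of groups, with 8 past the threshold. Monocyte and macrophage markers went from 4064 to 4674 CPM in AML WT to 2882 to 3930 in AML KO, with 1 gene higher and 1 lower past the threshold. B cell and T and NK cell sums overlapped between AML WT and AML KO, with 0 genes past the threshold by edgeR, DESeq2 or limma-voom. At an unadjusted edgeR p under 0.05 there were 0 and 3 genes, where all genes gave 17.7%. The stem and progenitor list summed to 319.5 to 373.8 CPM in AML WT and 471.0 to 551.2 in AML KO, with 2 of 10 genes higher past the threshold. No marker in the table was at a count of 0 in any mouse. In bulk BM, fewer cells of a type and less RNA per cell cannot be told apart, and the part of these cell types in the levels of the 10 genes was not tested.

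**Figure D1:**
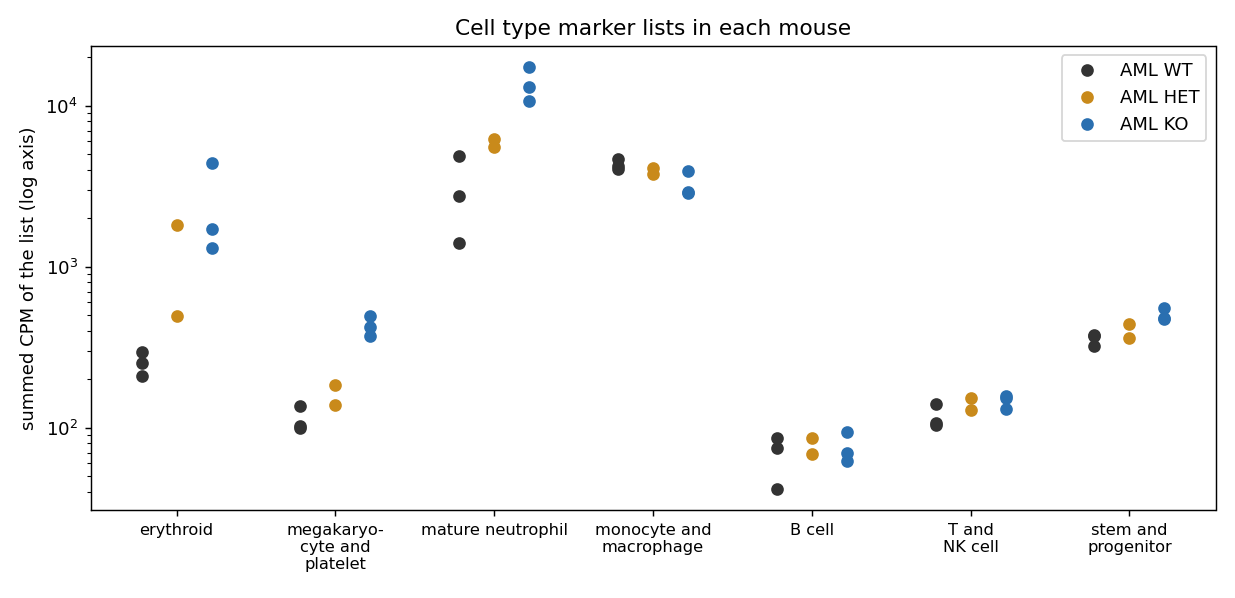
Summed CPM of each cell type marker list (log axis) in each mouse, with 1 point per mouse and colors for the 3 genotypes. The erythroid, megakaryocyte and platelet, mature neutrophil, and stem and progenitor sums of AML KO mice lie above all AML WT mice. The monocyte and macrophage sums of AML KO mice lie below all AML WT mice, while the B cell and the T and NK cell sums overlap.

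STAT5 binds DNA at the palindrome TTCNNNGAA, which reads the same on both strands. Promoters of 300 bases, 250 before and 50 from the transcription start on, were taken from RefSeq on GRCm38.p6, where 8 of the 10 genes were found with 11 promoters. Socs2 and Osm were not matched. Of all 32851 promoters, 8.3% held the palindrome, and 0.457% held it at least 2 times. Among the 11 promoters of the 8 genes, 2 held it, those of Cish and Socs3. Both are shown because they belong to the feedback genes whose windows hold these letters (capitals mark each match).

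Cish, chr9:107296409-107296708, plus strand: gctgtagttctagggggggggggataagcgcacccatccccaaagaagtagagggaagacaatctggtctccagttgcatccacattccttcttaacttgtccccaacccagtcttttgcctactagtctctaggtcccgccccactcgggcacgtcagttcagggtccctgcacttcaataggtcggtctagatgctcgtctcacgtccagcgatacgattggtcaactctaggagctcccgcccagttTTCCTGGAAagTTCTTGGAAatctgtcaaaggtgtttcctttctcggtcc
Socs3, chr11:117969317-117969616, minus strand: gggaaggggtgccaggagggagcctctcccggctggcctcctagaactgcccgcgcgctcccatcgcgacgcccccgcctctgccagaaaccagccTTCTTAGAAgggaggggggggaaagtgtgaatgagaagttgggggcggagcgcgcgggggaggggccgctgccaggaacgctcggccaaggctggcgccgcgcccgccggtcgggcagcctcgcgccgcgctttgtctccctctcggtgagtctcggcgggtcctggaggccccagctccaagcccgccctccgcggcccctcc

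In Cish the matches are TTCCTGGAA at bases 1 to 9 and TTCTTGGAA at bases 12 to 20, counted from the start as base 1. In Socs3 the match TTCTTAGAA lies at bases -154 to -146 from the RefSeq start. A stretch of bases just after that start was not found whole in any GENCODE M21 transcript of Socs3. The window lies inside the GENCODE span of the gene, so the position of this match depends on the annotation. The Cish window also lies inside the GENCODE span of Cish, which begins at 107296026, so the positions of its matches depend on the annotation too. Bases after the Cish start do occur in a GENCODE M21 transcript of Cish. The match is a description of the letters, and binding was not measured here.

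Levels were first compared among the 10 genes, after division by the length of their merged GENCODE M21 exons. On this scale of CPM per kb, Pim1 had the highest level in each of the 8 mice, from 35.6 to 52.9 with a median of 43.5. Stat5b followed at 24.1 to 33.6 and Jak2 at 16.8 to 30.5, and their ranges overlap. Pim2 (7.498 to 22.2), Stat5a (10.04 to 12.4) and Socs2 (7.46 to 12.5) came next in most mice, in an order that changed from mouse to mouse, and in AML KO replicate 1 Pim2 (22.2) was above Jak2 (16.8). Cish (3.83 to 6.55) and Osm (2.86 to 5.96) shared ranks 7 and 8, Socs1 (1.53 to 4.62) held rank 9 and Socs3 (1.28 to 2.59) rank 10 in every mouse. Merged exon length counts rarely used exons too, so this order depends on the annotation.

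With both Gab2 alleles lost, 0 of the 10 genes differed from AML WT at an adjusted p under 0.05 in edgeR's quasi-likelihood test, against 2.09% of all genes (1.77% higher and 0.323% lower). DESeq2 called 1 of them, Pim2, where it called 5.49% of all genes. Limma-voom called 0 of them, where it called 277 of the 13305 genes. At an unadjusted p under 0.05 there were 4 of the 10, namely Jak2, Cish, Pim2 and Osm, where all genes gave 17.7%. The AML KO and AML WT mice did not overlap at 4 genes, lower for Stat5a and Jak2 and higher for Cish and Pim2, and 22.1% of all genes had no overlap (12.3% higher and 9.83% lower). The median log2FC of the 10 was 0.29, with 7 above and 3 below 0, beside a median of -0.02 over all genes tested.

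**Figure D2:**
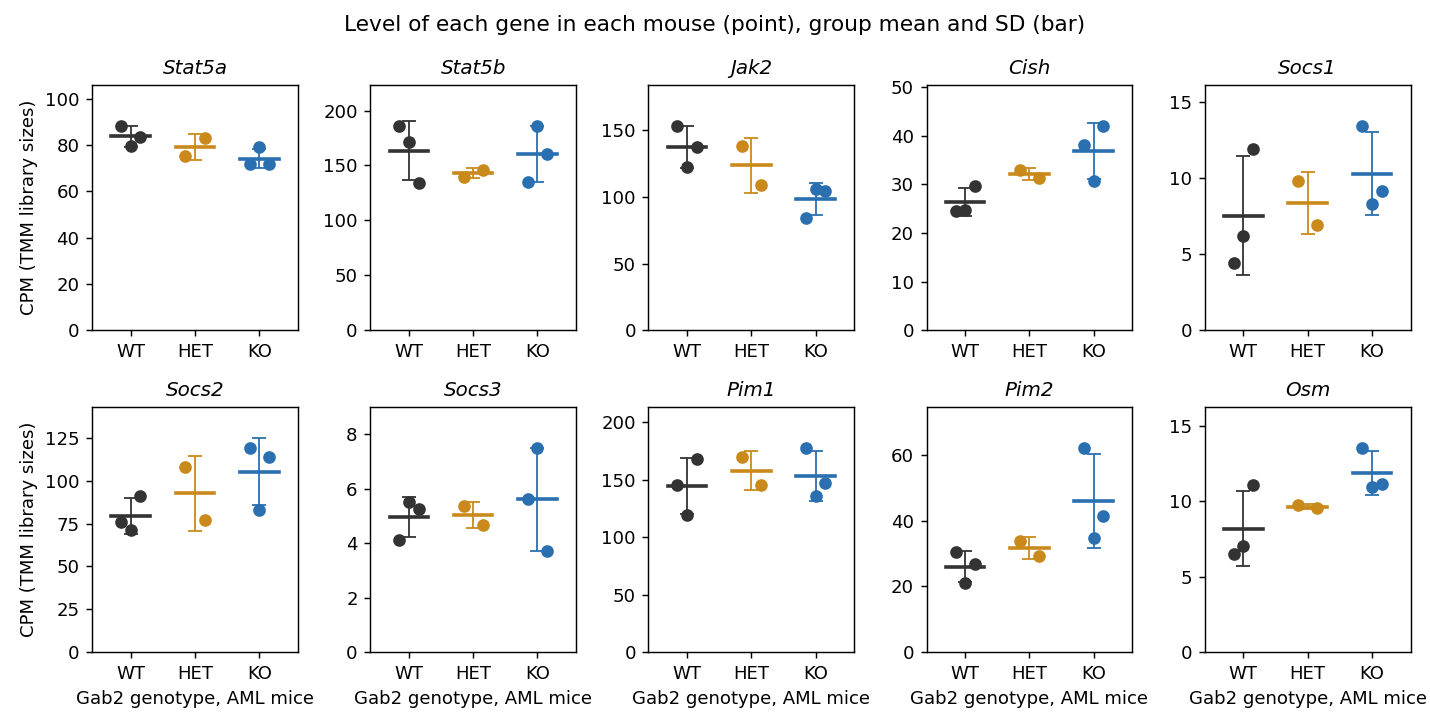
CPM of each of the 10 genes (linear axes from 0) by Gab2 genotype, with 1 point per mouse, the group mean as a thick bar and the SD as a thin bar. Jak2 and Stat5a are lower, and Cish and Pim2 higher, in each AML KO than in each AML WT mouse, while the other 6 genes overlap.

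The genes of the signal itself are described first. Stat5a (ENSMUSG00000004043) lies on the plus strand of chromosome 11 from 100859351 to 100885169 (GRCm38), and Stat5b (ENSMUSG00000020919) on the minus strand from 100780731 to 100850724, with 8626 bases between them. Stat5a was at 88.3, 79.4 and 83.4 CPM in AML WT mice 1 to 3, 75.1 and 83.1 in AML HET mice 1 and 2, and 71.8, 78.9 and 71.6 in AML KO mice 1 to 3, and values of the other genes follow this order of mice. The lowest AML WT mouse and the highest AML KO mouse thus differed by less than 1 CPM. Its log2FC from AML WT to AML KO was -0.18 (SE 0.11, edgeR adjusted p = 0.397), with a 95% interval of the fold change from 0.745 to 1.05.

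Stat5b was at 185.6, 171.1 and 133.6 CPM in AML WT, 139.6 and 146.2 in AML HET and 134.9, 186.1 and 160.7 in AML KO mice. The 3 groups overlapped. Here the log2FC was -0.03 (SE 0.16, edgeR adjusted p = 0.942), with a fold interval of 0.767 to 1.26. Its sign was positive under upper-quartile normalization (0.0013) and without AML WT mouse 1 (0.07), AML WT mouse 2 (0.0090) or AML KO mouse 1 (0.09).

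Both STAT5 proteins are closely related, and their transcripts share sequence. Of the distinct 50-base windows of Stat5b transcripts, 10.98% also occur in Stat5a, and 8.21% of those of Stat5a occur in Stat5b. A further 1.01% of the Stat5a exon bases overlap Stat3 on the opposite strand. How reads that fit both genes were counted is not given in the sources used here, so single values of this pair are less certain than their sum. Summed, Stat5a and Stat5b were at 247.1 ± 28.6 CPM (SD, n = 3) in AML WT BM, at 222.0 ± 10.3 over the 2 AML HET mice and at 234.7 ± 29.3 over the 3 AML KO mice. Stat5a took 32.2%, 31.7% and 38.4% of the counts of the pair in AML WT, 34.98% and 36.2% in AML HET and 34.7%, 29.8% and 30.8% in AML KO mice. The difference of -2.35 percentage points between AML KO and AML WT was within the spread between mice (exact permutation test, two-sided p = 0.5, where 0.1 is the smallest p that 3 against 3 mice allow). It was -0.1965 points without AML WT replicate 3.

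Jak2 (ENSMUSG00000024789, chromosome 19 from 29251828 to 29313080, plus strand) encodes the kinase that phosphorylates STAT5 downstream of many cytokine receptors. It was at 153.4, 122.2 and 137.5 CPM in AML WT, 138.5 and 109.0 in AML HET and 84.2, 106.3 and 104.8 in AML KO mice. Every AML KO mouse lay below every AML WT and every AML HET mouse, and the AML KO mean was 71.5% of the AML WT mean. This gave a log2FC of -0.48 (SE 0.15, edgeR adjusted p = 0.168, unadjusted p = 0.00952), with a fold interval of 0.567 to 0.902. Over the 8 leave-one-out fits it stayed between -0.56 and -0.38, with adjusted p from 0.128 to 0.471.

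The feedback genes Cish, Socs1, Socs2 and Socs3 encode SH2 domain proteins that bind receptors or Janus kinases and damp their signal. Cish (ENSMUSG00000032578, chromosome 9 from 107296026 to 107302784, plus strand) is often read as a marker of STAT5 activity. It was at 24.6, 24.8 and 29.7 CPM in AML WT, 32.9 and 31.2 in AML HET and 38.03, 30.6 and 42.05 in AML KO mice. All AML HET and all AML KO mice were above all AML WT mice, although AML KO replicate 2 exceeded the highest AML WT mouse by less than 1 CPM. Its log2FC was 0.49 (SE 0.15, edgeR adjusted p = 0.169, unadjusted p = 0.00986), with a fold interval of 1.11 to 1.77. Over the 8 fits without 1 mouse it lay between 0.38 and 0.60, and the adjusted p between 0.0732 and 0.415. Antisense transcripts Gm17041 and Gm17040 overlap 7.46% and 4.07% of the Cish exon bases, and the strand setting of the counting is not given in the sources used here. The promoter with both palindromes shown above is that of Cish.

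Socs2 (ENSMUSG00000020027, chromosome 10 from 95385362 to 95417180, minus strand), known as a restraint of growth hormone signaling, was at 75.9, 71.1 and 91.1 CPM in AML WT, 108.0 and 77.1 in AML HET and 119.1, 82.9 and 113.8 in AML KO mice. AML KO replicate 2 lay within the range of AML WT, and the other 2 AML KO mice above it. The resulting log2FC was 0.41 (SE 0.18, edgeR adjusted p = 0.285), with a fold interval of 0.998 to 1.77. Of its 50-base windows, 4.19% also occur in the pseudogene Gm9847.

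Socs1 (ENSMUSG00000038037, chromosome 16 from 10782240 to 10785536, minus strand), an inhibitor of Janus kinases, was at 4.45, 6.23 and 11.9 CPM in AML WT, 9.78 and 6.92 in AML HET and 13.4, 8.30 and 9.17 in AML KO mice. The SD of AML WT was 51.8% of its mean, far above the counting error of 7.43% at the lowest count of 181. From AML WT to AML KO, the log2FC was 0.45 (SE 0.36, edgeR adjusted p = 0.487). It was 0.95 without AML WT replicate 3 and 0.17 without AML WT replicate 1.

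Socs3 (ENSMUSG00000053113, chromosome 11 from 117966079 to 117970047, minus strand), which restrains receptors that signal through gp130 and the receptor of G-CSF, had the fewest counts, 126 to 206 per mouse. It was at 4.13, 5.50 and 5.27 CPM in AML WT, 5.36 and 4.68 in AML HET and 5.63, 7.497 and 3.71 in AML KO mice, so the AML KO mice spanned the range of both other groups. The log2FC of 0.18 (SE 0.27, edgeR adjusted p = 0.737) turned to -0.09 without AML KO replicate 2.

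Pim1 and Pim2 encode serine/threonine kinases that are active as soon as they are made, so that their transcript level matters for their activity. Pim1 (ENSMUSG00000024014, chromosome 17 from 29490753 to 29496112, plus strand) was at 145.2, 119.8 and 168.5 CPM in AML WT, 170.0 and 145.9 in AML HET and 177.8, 136.2 and 146.8 in AML KO mice. Its groups overlapped. This is a log2FC of 0.09 (SE 0.16, edgeR adjusted p = 0.776), with a fold interval of 0.830 to 1.36, and it turned to -0.03 when either AML WT replicate 2 or AML KO replicate 1 was left out. The antisense gene Gm26885 overlaps 14.5% of the Pim1 exon bases.

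Pim2 (ENSMUSG00000031155, chromosome X from 7878262 to 7883432, plus strand) showed the largest difference of the 10 genes between AML KO and AML WT. It was at 30.3, 20.96 and 26.8 CPM in AML WT, 33.9 and 29.3 in AML HET and 62.1, 34.7 and 41.3 in AML KO mice. The lowest AML KO mouse was above the highest of all other mice by less than 1 CPM, and AML KO replicate 1 was well above the rest. Its log2FC was 0.82 (SE 0.22, edgeR adjusted p = 0.119, unadjusted p = 0.00472), with a fold interval of 1.25 to 2.51. The adjusted p was 0.0174 with DESeq2 and 0.0484 without AML KO replicate 2, a fit that called 2.78% of all genes, and it reached 0.331 without AML KO replicate 1, where the log2FC was 0.55. AML KO replicate 1 also had the highest erythroid and mature neutrophil marker sums of all mice, at 4388 and 17390 CPM. The same held for its megakaryocyte and platelet (495.8 CPM), stem and progenitor (551.2) and B cell (93.9) sums. It did not hold for the T and NK cell or the monocyte and macrophage sums. The part of these cell types in the Pim2 level was not tested.

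Osm (ENSMUSG00000058755, chromosome 11 from 4236420 to 4241026, plus strand) encodes oncostatin M, a cytokine of the IL-6 family made by myeloid cells. It was at 6.49, 7.02 and 11.1 CPM in AML WT, 9.78 and 9.53 in AML HET and 13.5, 10.9 and 11.2 in AML KO mice. Of the AML WT mice, replicate 3 alone reached the AML KO range. From AML WT to AML KO, the log2FC was 0.54 (SE 0.23, edgeR adjusted p = 0.269, unadjusted p = 0.0404), with a fold interval of 1.02 to 2.06. Without AML WT replicate 3 it was 0.82 (adjusted p = 0.0994). That mouse also had the highest mature neutrophil marker sum of AML WT, 4837 CPM. Its erythroid (293.1 CPM), B cell (85.9), T and NK cell (139.9) and stem and progenitor (373.8) sums were the highest of AML WT too. Its megakaryocyte and platelet (98.9 CPM) and monocyte and macrophage (4064) sums were the lowest of AML WT. The part of these cell types in the Osm level was not tested.

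**Figure D3:**
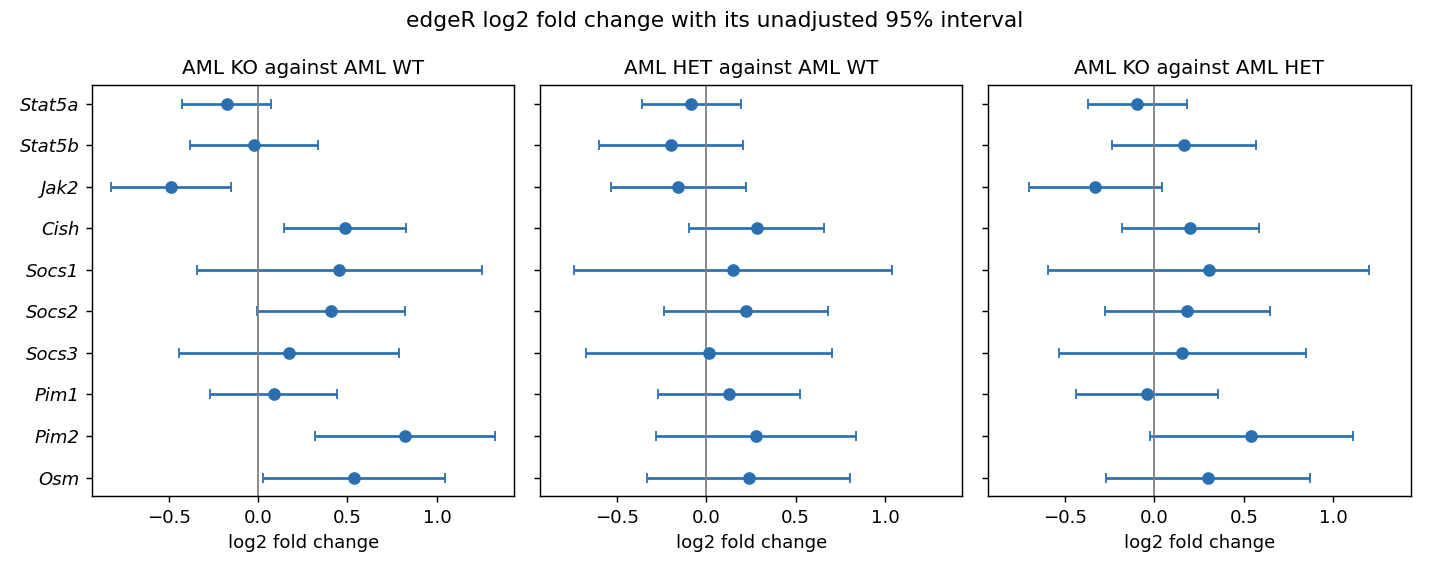
Log2 fold change of each of the 10 genes (x axis) from edgeR with its unadjusted 95% interval (bar), for the 3 pairs of genotypes. Between AML KO and AML WT the intervals of Jak2, Cish, Pim2 and Osm lie off 0, and in the other 2 comparisons every interval includes 0.

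The steps between neighbouring genotypes were described next, and for Stat5b and Pim1 the AML HET mean was the farthest from AML WT. Between AML HET and AML WT, 0 of the 10 genes passed with edgeR, limma-voom or DESeq2 and 0 had an unadjusted edgeR p under 0.05, where 0.0225% (all higher, with 0% lower) and 2.47% of all genes did with edgeR. Over all genes, limma-voom called 1 and DESeq2 59 here. The log2FCs ran from -0.19 (Stat5b) to 0.28 (Cish, edgeR adjusted p = 0.99). Cish alone had no overlap between these groups, against 18.1% of all genes (9.53% higher and 8.61% lower). Comparing AML KO with AML HET, 0 of the 10 passed with edgeR (0% of all genes), and 0 of the 10 had an unadjusted edgeR p under 0.05 (5.86% of all genes). Limma-voom and DESeq2 also called 0 of the 10 between AML KO and AML HET, and 0 and 77 of all genes. Values here ran from -0.33 (Jak2) to 0.54 (Pim2, edgeR adjusted p = 0.844). Without overlap were Jak2, Pim2 and Osm, against 24.2% of all genes (13.2% higher and 11% lower).

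The AML HET mean lay between the means of AML WT and AML KO for 8 of the 10 genes, the exceptions being Stat5b and Pim1, and for 53.3% of all genes. With the number of functional Gab2 alleles (2, 1 or 0) as a numeric term, 0 of the 10 genes passed with edgeR against 2.64% of all genes (2.11% higher and 0.526% lower per lost allele), and 5 had an unadjusted p under 0.05 (20.2% of all genes). Limma-voom called 0 of the 10 and 351 of the 13305 genes. The log2 change per lost allele was 0.41 for Pim2 (SE 0.11, edgeR adjusted p = 0.0771), 0.24 for Cish (0.07, adjusted p = 0.118), 0.27 for Osm (adjusted p = 0.206), 0.20 for Socs2 (adjusted p = 0.225) and -0.24 for Jak2 (0.07, adjusted p = 0.123). DESeq2 called 3 of them, Pim2, Cish and Jak2, and 6.5% of all genes. Without AML KO replicate 2, edgeR called Pim2 (adjusted p = 0.0332) and Cish (0.0408), and 3.95% of all genes. This trend uses the same mice as the comparisons above.

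**Figure D4:**
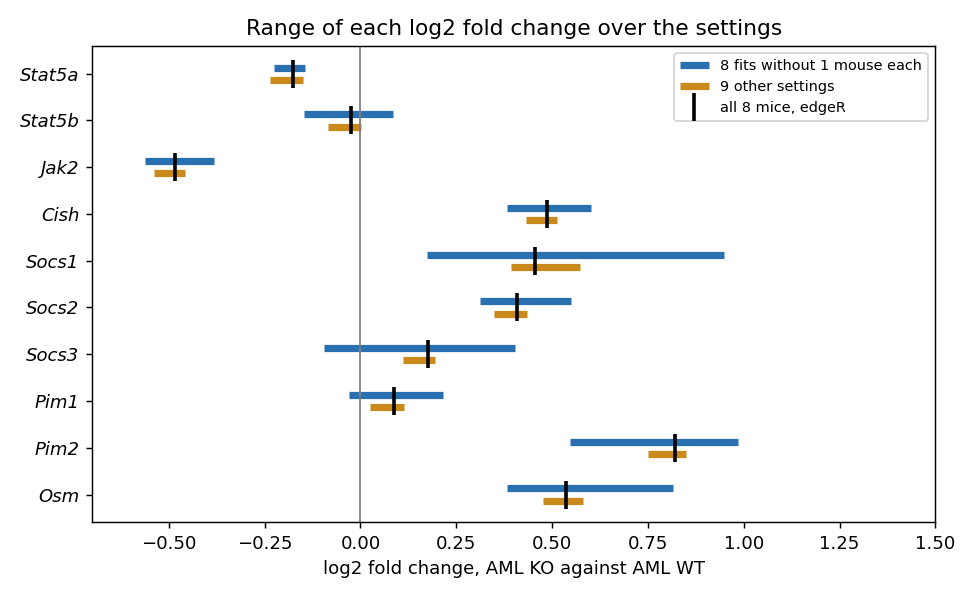
Log2FC of AML KO against AML WT (x axis) of each of the 10 genes, with a tick for the fit of all 8 mice, blue bars for the range of the 8 fits without 1 mouse and orange bars for the range of 9 other settings. The bars of Stat5b, Socs3 and Pim1 cross 0, and those of the other 7 genes stay on one side.

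The rest of the pathway was described from 6 lists. Of 8 other JAK and STAT genes, 0 passed in AML KO against AML WT, with a median log2FC of -0.23 and 6 of 8 below 0. The largest values were 0.51 for Stat4 (edgeR adjusted p = 0.383), which is used by T and NK cells, and -0.49 for Stat2 (adjusted p = 0.294), which serves interferon receptors. Stat4 was at 0.20 without AML KO replicate 1, and Stat2 at -0.17 without AML WT replicate 3. Of 5 other Socs and Pim genes, 0 passed, with a median of 0.02 and the largest values at -0.38 for Socs4 and -0.24 for Socs6 (edgeR adjusted p = 0.312 and 0.319). DESeq2 and limma-voom also called 0 genes in both lists. An unadjusted edgeR p under 0.05 was reached by 1 and 0 genes, and by 17.7% of all genes.

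Among 14 other restraints of the pathway, such as phosphatases and ubiquitin ligases, 0 passed with edgeR and limma-voom. An unadjusted edgeR p under 0.05 was reached by 2 of them (17.7% of all genes). DESeq2 called those 2, Dok2 and Ptprc, and 5.49% of all genes. Dok2, an adaptor that restrains tyrosine kinases in myeloid cells, was at 11.4, 18.5 and 18.8 CPM in AML WT, 18.8 and 17.02 in AML HET and 32.5, 23.7 and 26.8 in AML KO mice (log2FC 0.77, SE 0.21, edgeR adjusted p = 0.117). Cbl, a ubiquitin ligase of receptor kinases, had -1.35 with a SE of 0.68 (adjusted p = 0.319). Its AML WT mice were at 156.5, 53.6 and 30.2 CPM and its AML KO mice at 8.18, 51.97 and 34.3, so the groups overlapped, and the log2FC was -0.42 with AML WT replicate 1 left out and -0.90 with AML KO replicate 1 left out.

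Of 16 other genes known as STAT5 targets, 1 rose and 1 fell past the threshold (2.09% of all genes). An unadjusted edgeR p under 0.05 was found for 7 of the 16 (17.7% of all genes), and their median log2FC was -0.04. The list was not split by whether STAT5 raises or lowers each gene. Bcl2l1, which encodes the survival protein Bcl-xL and is also prominent in red cell precursors, was at 29.1, 33.03 and 33.5 CPM in AML WT, 36.6 and 43.3 in AML HET and 74.9, 48.5 and 53.8 in AML KO mice. It rose by 0.89 on the log2 scale (SE 0.175, edgeR adjusted p = 0.034), and every AML KO mouse was above every AML HET mouse, each of which was above every AML WT mouse. Ccnd1, the gene of cyclin D1, was at 17.5, 16.2 and 26.5 CPM in AML WT, 15.99 and 10.2 in AML HET and 4.55, 9.28 and 5.54 in AML KO mice. Ccnd1 fell, its log2FC being -1.64 (SE 0.31, edgeR adjusted p = 0.0294) with the opposite order of the groups, again without overlap. Its lowest AML WT mouse (16.2 CPM) and highest AML HET mouse (15.99) lay close together. Over all genes, 22.1% had no overlap of AML KO and AML WT, 18.1% of AML HET and AML WT and 24.2% of AML KO and AML HET. The share with all groups apart was not counted. Bcl2l1 lost its call in 7 of the 8 leave-one-out fits, all but that without AML KO replicate 2, with adjusted p of at most 0.123 (without AML WT replicate 2). Ccnd1 lost it in 5 of 8, those without AML WT replicate 1, 2 or 3 or AML KO replicate 1 or 3 (at most 0.141 without AML KO replicate 3). With the AML WT and AML KO mice alone, Bcl2l1 had an adjusted p of 0.0618.

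Of 11 receptors that signal through Jak2 or Stat5, 9 are in the table. Past the threshold 1 of them, Epor, rose with edgeR and limma-voom, and 0 were lower. Over all genes, edgeR called 2.09% (1.77% higher and 0.323% lower), and limma-voom called 277 of the 13305. At an unadjusted edgeR p under 0.05 there were 4 of the 9, where all genes gave 17.7%. DESeq2 called 1 more, Il3ra, also higher, where it called 5.49% of all genes. Epor, the erythropoietin receptor, had 25 to 44 counts in AML WT, 47 and 184 in AML HET and 138 to 394 in AML KO mice, and its log2FC was 2.98 (SE 0.55, edgeR adjusted p = 0.0245). It is itself a gene of the erythroid marker list, whose sums are given above. Epor did not pass without AML WT replicate 1, 2 or 3 or AML KO replicate 1 or 3 (at most 0.0883 without AML WT replicate 2).

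Receptor chains for oncostatin M and related cytokines were looked up beside Osm. Of 6 genes in that list, the receptor chains Osmr, Il6st and Lifr are in the table, and the cytokine genes Lif, Il6 and Il11 are not. Of the chains, 0 passed with edgeR over all 8 mice or with limma-voom. An unadjusted edgeR p under 0.05 was reached by 1 of them (17.7% of all genes). Lifr was at 43.7, 28.9 and 35.97 CPM in AML WT and 31.06 and 14.75 in AML HET mice. In AML KO mice it was at 20.4, 15.98 and 17.4 CPM (log2FC against AML WT -1.01, SE 0.26, edgeR adjusted p = 0.0999). Its AML WT and AML KO mice did not overlap, as for 22.1% of all genes. Lifr was called by DESeq2 (0.00782) and by edgeR with the AML WT and AML KO mice alone (0.0389) or without AML HET replicate 1 (0.0397) or 2 (0.0396). Il6st, the shared gp130 chain, had -0.42 (edgeR adjusted p = 0.299), and -0.25 without AML KO replicate 1 or -0.27 without AML WT replicate 1.

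**Figure D5:**
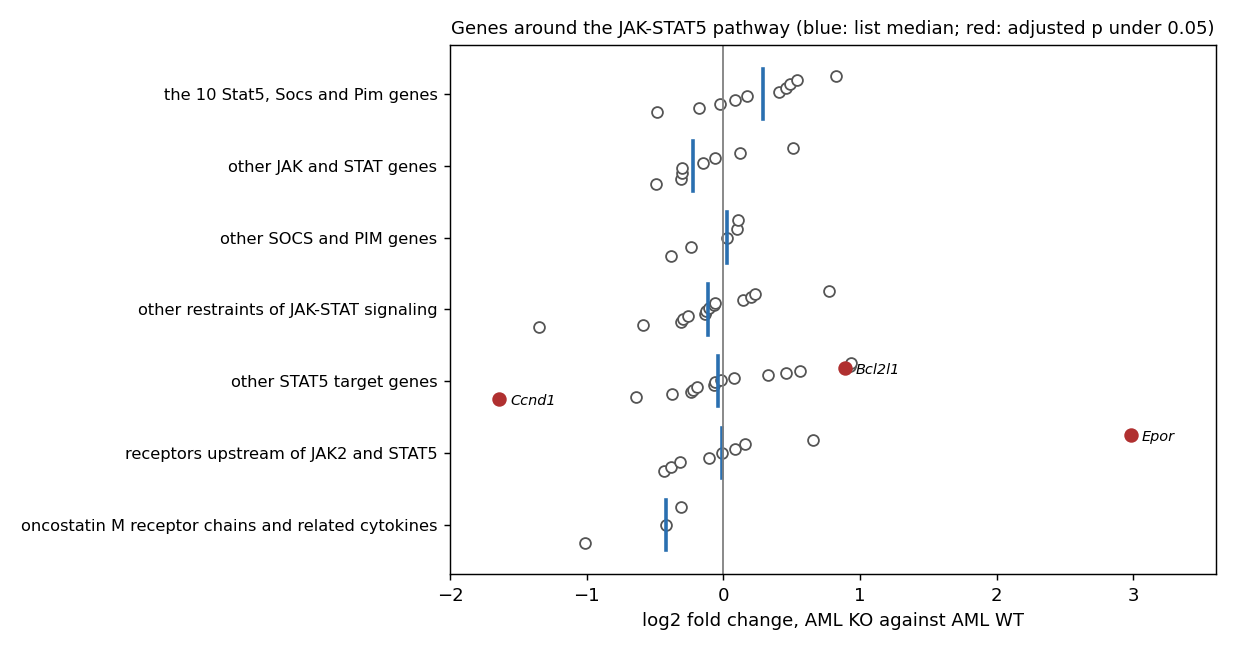
Log2FC of AML KO against AML WT (x axis) of the 10 genes and of the genes of 6 further lists (rows), with 1 point per gene, filled red where the edgeR adjusted p is under 0.05, and a blue bar at the list median. The 3 red genes, Ccnd1 on the lower side and Bcl2l1 and Epor on the higher side, are all outside the 10.

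Genes with the most similar pattern were named for Stat5a, Stat5b and Cish by Pearson's r of log2 CPM over the 8 mice, as a description of libraries that share genotype and depth. For Stat5a they were Copg1 (0.98), Ap3d1 (0.97) and Bphl (0.96), with 54 genes above 0.9. For Stat5b they were Pxdn (0.98), Zc3h4 (0.98) and Nfic (0.97), with 132 genes above 0.9. For Cish they were Baiap3 (0.95), Jchain (0.95) and Gimap3 (0.95), with 41 genes above 0.9.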

How the data were processed

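The authors sequenced whole BM RNA of 8 mice (3 AML WT, 2 AML HET, 3 AML KO) on an Illumina HiSeq4000. They deposited raw counts per Ensembl gene, without normalization, in 1 column per mouse. The submitters' processing notes name Trimmomatic 0.36, STAR 2.5.2b and the build mm10. The counting tool, its strand setting and the annotation are not given in the sources used here. The lowest sum of a gene over the 8 mice is 106 counts. GENCODE M21 (GRCm38) gave symbols and positions for 13266 of the 13305 identifiers.

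The test was that of edgeR 4.0.16 (R 4.3.3), with TMM normalization, filterByExpr (which removed 0 genes), the robust quasi-likelihood fit of all 8 mice with genotype as the only term, or the number of Gab2 alleles for the trend, and Benjamini-Hochberg adjustment over all genes, called at 0.05. SEs (standard errors) and 95% intervals were derived from the F statistic. Groups come from the sample titles, and the mice are separate animals. Scripts were tested on simulated counts. Every pair of replicates differed by more than sampling noise. Correlations use log2 CPM with a prior count of 2. Alternatives were DESeq2 1.42.0, limma-voom (limma 3.58.1), other normalizations and filters, a replicate block, AML WT and AML KO mice alone and each mouse left out in turn. Counting error alone was at most 8.91% of the value for each of the 10 genes. Figures were made with matplotlib 3.10.9.

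The 10 genes and all lists were chosen with earlier results of these data known. All 10 genes are named. Of each further pathway list, genes past the threshold between AML KO and AML WT are named, or else the 2 with the largest log2FC. Ptprc, Il3ra, Il2ra and Gadd45g were chosen after their values were seen. A gene of the receptor list is not reported here.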

Additional observations from a re-analysis of the deposited data

How the results depend on the processing

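Most settings left the calls of the 10 genes as they were, with 0 called under every alternative in both comparisons that involve AML HET mice. Between AML KO and AML WT, DESeq2 called 1 of the 10 and the fits without 1 mouse 0 to 1. For the trend over alleles DESeq2 called 3 and the fits without 1 mouse 0 to 2. Over all genes, DESeq2 called 730, 59 and 77 genes between AML KO and AML WT, AML HET and AML WT, and AML KO and AML HET, and 865 for the trend, while limma-voom called 1 between AML HET and AML WT. The replicate block called 19, 0 and 0 genes and 125 for the trend, with 0 of the 10 in each, and adjusted p of 0.165 for Gab2 and Bcl2l1, 0.154 for Ccnd1 and 0.133 for Epor. The deviations of same-numbered mice from their group means had Pearson's r of -0.51, -0.11 and -0.13 for AML WT with AML KO, 0.08 and 0.29 for AML WT with AML HET and -0.14 and -0.04 for AML KO with AML HET. The numbers were therefore not taken as pairs, and the cause of the lower counts under the block was not tested. Without 1 mouse the counts over all genes were 40 to 370, 1 to 5 and 0 to 4, and 137 to 525 for the trend.

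Signs that turned were all of values that had not passed. Stat5b was at 0.0013 between AML KO and AML WT and 0.0006 for the trend under upper-quartile normalization, and Socs3 at -0.0816 between AML HET and AML WT with the replicate block. Without 1 mouse, the log2FCs between AML KO and AML WT were -0.148 to 0.086 for Stat5b, -0.0304 to 0.2154 for Pim1 and -0.0942 to 0.4023 for Socs3. Between AML HET and AML WT they were -0.1205 to 0.6558 for Socs1, -0.0406 to 0.4451 for Socs2, -0.0967 to 0.1126 for Socs3 and -0.3372 to 0.0080 for Jak2. Between AML KO and AML HET they were -0.1531 to 0.0741 for Pim1, -0.0371 to 0.4485 for Socs2 and -0.1168 to 0.3845 for Socs3. For the trend they were -0.0785 to 0.0405 for Stat5b, -0.0167 to 0.0979 for Pim1 and -0.0428 to 0.1912 for Socs3. The difference in the Stat5a share was -3.817 to -0.1965 percentage points. The SD between mice was above the counting error at the lowest count for each of the 10 genes in AML WT and AML KO, and in AML HET for all but Osm (1.86% against 6.71% of the value).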

Other observations

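Within a genotype, the mouse with the highest or lowest value was looked up for each of the 10 genes. With 10 genes and groups of 3 or 2 mice, several genes must share such a mouse, so the sharing itself was fixed in advance. AML WT replicate 3 had the highest Cish, Socs1, Socs2, Pim1 and Osm of its group and the lowest Stat5b. AML WT replicate 1 had the highest Stat5a, Stat5b, Jak2 and Pim2 and the lowest Cish, Socs1, Socs3 and Osm. In AML WT replicate 2, Socs3 was the highest and Stat5a, Jak2, Socs2, Pim1 and Pim2 the lowest. AML HET replicate 1 was above AML HET replicate 2 for 8 of the 10 genes, all but Stat5a and Stat5b. AML KO replicate 2 had the lowest Cish, Socs1, Socs2, Pim1, Pim2 and Osm of its group. It also had the highest Stat5a, Stat5b, Jak2 and Socs3. The highest Socs1, Socs2, Pim1, Pim2 and Osm and the lowest Stat5b and Jak2 of AML KO were in replicate 1. AML KO replicate 3 had the highest Cish and the lowest Stat5a and Socs3. This was seen in the same data and was not tested.

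Of the wider pathway lists, 3 further genes are given for AML KO against AML WT, chosen after their values were seen. Ptprc, which encodes the phosphatase CD45 of leukocytes, had -0.59 on the log2FC scale (SE 0.14, edgeR adjusted p = 0.0742). Among genes known as STAT5 targets, the 2 highest log2FCs were those of Il2ra and Gadd45g, although neither was near the threshold. Il2ra, a chain of the IL-2 receptor, had 0.93 (SE 0.31, edgeR adjusted p = 0.198) and Gadd45g, a stress response gene, also 0.93 (SE 0.41, edgeR adjusted p = 0.279). With edgeR and limma-voom these 3 did not pass, and DESeq2 called Ptprc.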
